A study of Mus musculus with 6 samples.

Results

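The genes described here are *Trp53*, which encodes the transcription factor p53, and 9 genes that are textbook targets of p53 (*Cdkn1a*, *Mdm2*, *Ccng1*, *Bax*, *Bbc3*, *Pmaip1*, *Zmat3*, *Sesn1* and *Trp53inp1*). They were chosen by symbol, 10 of the 23183 gene symbols with a value in every library, and all 10 were found. RNA of cerebral microvessels isolated from C57BL/6 mice was sequenced in 3 WT and 3 TEKCRIF1 KO mice, with 1 library per mouse. The WT mice were TEK-cre with 2 intact alleles of *Crif1* (*Gadd45gip1*), and the KO mice were TEK-cre, *Crif1* flox/flox, so that both groups carried the Cre recombinase. The age and sex of these mice are not given in the sources used here. Cre driven by Tek acts in endothelial cells and is also known to act in blood cell lineages, whereas a microvessel preparation holds pericytes, astrocyte endfeet and other cells in which *Crif1* is not deleted. In such bulk RNA, fewer cells of a type and less RNA per cell cannot be told apart. The comparison asked whether the targets followed *Trp53* in KO against WT mice.

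p53 is held at a low level in unstressed cells mainly by Mdm2, a ubiquitin ligase that marks p53 for destruction and is itself induced by p53, which closes a feedback loop. When DNA damage or other stress frees p53, it binds DNA as a tetramer and switches on genes that halt the cell cycle, repair DNA, limit oxidation or start apoptosis. p53 is controlled largely through the stability and modification of the protein, so the mRNA of *Trp53* measures neither the amount nor the activity of p53. In endothelial cells p53 is known for its roles in growth arrest, senescence and apoptosis.

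The deleted gene was read first. *Gadd45gip1*, which encodes a protein of the mitochondrial ribosome, had 18.8, 15.3 and 16.5 FPKM in the WT libraries, in the order of their numbers, against 10.8, 7.54 and 10.4 FPKM in the KO libraries. FPKM counts the sequenced fragments of a gene relative to the length of its exons and to the size of the library. Every KO library lay below every WT library (log2 difference −0.77, limma p = 0.00534, exact permutation p = 0.1). Estimated depth, a rough figure from 76 to 138 values per library, was 6300000 to 11600000 fragments. A transcript of 1 kb with 3 fragments would have 0.259 to 0.473 FPKM at these depths, which takes in counting error and nothing else. All 10 endothelial markers were found above 0 in each library, with a summed level of 1084 to 1505 FPKM in WT and 951 to 1298 FPKM in KO mice. Of these, 8 had a lower and 2 a higher mean in KO mice, with a median log2 difference of −0.16. The 1 of them without overlap (11.1% of all genes) or with an unadjusted limma p under 0.05 (5.88%) was *Cdh5*, which encodes the endothelial cadherin. It had 86.7, 92.4 and 91.3 FPKM in WT and 50.8, 42.5 and 38.1 FPKM in KO mice (log2 difference −1.03, limma p = 3.03e-04, adjusted p = 0.841, exact permutation p = 0.1). *Pecam1*, another of these markers, had 90.9, 69.6 and 55.8 FPKM in WT and 81.8, 58.8 and 88.9 FPKM in KO mice (log2 difference 0.09, limma p = 0.717, exact permutation p = 0.8). Of 8 pericyte markers, 7 had a lower mean in KO mice and 4 were below every WT library in every KO library, beside 5.7% of all genes, while their summed levels overlapped (829 to 1327 against 866 to 970 FPKM). The summed levels of 7 astrocyte markers (597 to 691 against 443 to 497 FPKM), 8 microglia and macrophage markers (156 to 209 against 123 to 150 FPKM) and 5 fibroblast markers (1205 to 1809 against 800 to 1105 FPKM) were lower in every KO library than in every WT library. The summed level of 4 choroid plexus markers was 2844 to 3309 FPKM in WT mice, 8772 FPKM in KO 1, 2941 FPKM in KO 2 and 10525 FPKM in KO 3. The 5 smooth muscle markers all had a higher mean in KO mice (median log2 difference 0.39), with overlapping sums of 245 to 578 FPKM in WT and 269 to 775 FPKM in KO mice and the highest sum in KO 1. Of 6 oligodendrocyte markers 5 had a lower mean in KO mice, with sums of 422 to 561 FPKM in WT and 248 to 473 FPKM in KO mice. Of them 2 had an unadjusted limma p under 0.05 and 1 was without overlap, beside 5.88% and 11.1% of all genes. These counts were 2 and 4 for pericyte, 2 and 2 for astrocyte, 1 and 2 for fibroblast, and 1 and 1 for microglia and macrophage markers. They were 1 and 0 each for choroid plexus (higher in KO mice), neuron and erythroid markers, and 0 and 0 for smooth muscle markers. Of 8 neuron markers 6 had a lower mean in KO mice (553 to 1057 against 436 to 824 FPKM), as had 3 of the 4 erythroid markers found (1765 to 2425 against 1209 to 2341 FPKM). These shifts in other cell types move with the groups or with single KO libraries, and their part in the values below was not tested.

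The promoters are shown first because p53 acts by binding DNA near its targets. RefSeq windows on GRCm38.p6, from 250 bases before to 50 bases after a transcription start, were found for 7 of the 10 genes. Each window was searched for exact matches to the p53 consensus decamer, the 10-base unit that p53 binds in pairs. The decamer equals its own reverse complement, so a match counts for both strands. At least 1 match was present for 6 of the 7 genes (85.7%), against 2582 of 27025 genes in the table (9.55%) and 14 of 89 further genes of the p53 network (15.7%). By window, 6 of the 11 windows of these genes held a match, against 8.36% of all windows. The windows of *Trp53* and of 4 targets are shown, *Mdm2* and *Ccng1* as the targets with the largest differences between groups, *Cdkn1a* and *Bax* as the most abundant ones in arrest and apoptosis, and capitals mark the decamer. The windows lie at chr11:69580109-69580408 (plus strand) for *Trp53*, chr10:117710709-117711008 (minus) for *Mdm2*, chr17:29090729-29091028 (plus) for *Cdkn1a*, chr11:40755237-40755536 (minus) for *Ccng1* and chr7:45466849-45467148 (minus) for *Bax*, and each sequence reads from 5′ to 3′ towards the gene.
Trp53: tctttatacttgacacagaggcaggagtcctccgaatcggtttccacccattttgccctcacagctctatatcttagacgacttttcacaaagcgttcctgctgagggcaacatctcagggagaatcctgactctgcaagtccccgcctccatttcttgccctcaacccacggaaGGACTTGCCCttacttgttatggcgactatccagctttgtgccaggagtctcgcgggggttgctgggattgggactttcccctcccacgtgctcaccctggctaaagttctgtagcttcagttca
Mdm2: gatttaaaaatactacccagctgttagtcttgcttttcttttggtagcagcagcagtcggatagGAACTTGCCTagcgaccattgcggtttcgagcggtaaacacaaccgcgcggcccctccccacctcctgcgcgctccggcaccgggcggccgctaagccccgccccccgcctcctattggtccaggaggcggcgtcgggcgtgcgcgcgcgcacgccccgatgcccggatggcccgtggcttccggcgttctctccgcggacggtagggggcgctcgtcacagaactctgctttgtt
Cdkn1a: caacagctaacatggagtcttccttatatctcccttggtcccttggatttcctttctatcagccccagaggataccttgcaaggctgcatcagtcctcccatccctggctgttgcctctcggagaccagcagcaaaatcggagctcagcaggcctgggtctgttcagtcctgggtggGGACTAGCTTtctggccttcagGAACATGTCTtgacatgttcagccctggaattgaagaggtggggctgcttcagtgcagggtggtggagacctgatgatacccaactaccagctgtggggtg
Ccng1: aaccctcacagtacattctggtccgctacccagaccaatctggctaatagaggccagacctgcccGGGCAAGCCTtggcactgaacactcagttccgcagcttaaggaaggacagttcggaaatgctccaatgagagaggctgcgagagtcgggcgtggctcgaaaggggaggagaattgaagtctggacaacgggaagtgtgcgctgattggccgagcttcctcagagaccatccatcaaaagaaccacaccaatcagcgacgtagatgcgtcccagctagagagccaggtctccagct
Bax: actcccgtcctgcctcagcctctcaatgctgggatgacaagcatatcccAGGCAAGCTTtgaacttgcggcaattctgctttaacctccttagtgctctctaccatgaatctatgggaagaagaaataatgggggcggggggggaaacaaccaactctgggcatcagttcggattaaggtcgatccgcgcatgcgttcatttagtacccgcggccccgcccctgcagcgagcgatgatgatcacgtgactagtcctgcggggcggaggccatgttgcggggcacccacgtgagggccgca
The first base of the match lay at position −75 from the start in *Trp53*, −186 in *Mdm2*, −185 in *Ccng1* and −201 in *Bax*. *Cdkn1a* had 2 matches, at −73 and −51, in the upstream of its 2 windows and none in the other. *Sesn1* had 1 match (AAGCTTGTTT, at −173 in the second of its windows), and *Bbc3* had none in its 3 windows. *Pmaip1*, *Zmat3* and *Trp53inp1* were not in the table. A match describes the letters of the window and not a bound site, and the absence of one says only that these letters are not in it.

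In WT mice the p53 genes covered a wide range of levels per transcript length. *Bax* (39.7 ± 1.67 FPKM, mean ± SD, n = 3), *Cdkn1a* (39.4 ± 4.39 FPKM) and *Sesn1* (34.1 ± 5.98 FPKM) were highest, followed by *Trp53* itself (29.1 ± 5.07 FPKM), whose mean was at percentile 81.7 of all genes tested. The order went on with *Ccng1* (20.03 ± 2.20 FPKM), *Mdm2* (12.7 ± 0.363 FPKM), *Trp53inp1* (11.6 ± 4.48 FPKM), *Zmat3* (7.24 ± 0.930 FPKM) and *Bbc3* (5.32 ± 0.824 FPKM). *Pmaip1* was the lowest (0.591 ± 0.297 FPKM). Neighbours whose WT libraries overlapped were *Bax* and *Cdkn1a*, *Cdkn1a* and *Sesn1*, *Sesn1* and *Trp53*, and *Mdm2* and *Trp53inp1*, while the other neighbours did not overlap. Among KO libraries *Trp53* overlapped with *Ccng1* and no longer with *Sesn1*. In WT mice *Trp53* was above *Ccng1* in each library, and in KO mice it was below *Ccng1* in each.

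*Trp53* (chr11:69580359-69591873 on GRCm38, plus strand, 11 exons in its longest coding transcript) was lower in the KO mice. Its level was 25.8 FPKM in WT 1, 34.9 in WT 2 and 26.6 in WT 3. In the KO libraries it was 23.0 FPKM in KO 1, 17.7 in KO 2 and 16.3 in KO 3. The groups did not overlap, although KO 1 lay close to the lowest WT library. The mean was 29.1 ± 5.07 FPKM in WT and 19.0 ± 3.53 FPKM in KO mice (n = 3 each), a log2 difference of −0.59 on the FPKM + 1 scale (SE 0.22, 95% interval −1.08 to −0.11). The limma p was 0.0212 before and 0.841 after adjustment over 14247 genes, and the exact two-sided permutation p was 0.1, the smallest that 3 mice against 3 allow. The difference therefore did not pass the test across all genes. Without WT 2 it was −0.46 (limma p = 0.101) and without KO 3 it was −0.49 (limma p = 0.0657), values that rest on 5 libraries and have no exact permutation test.

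**Figure D1:**
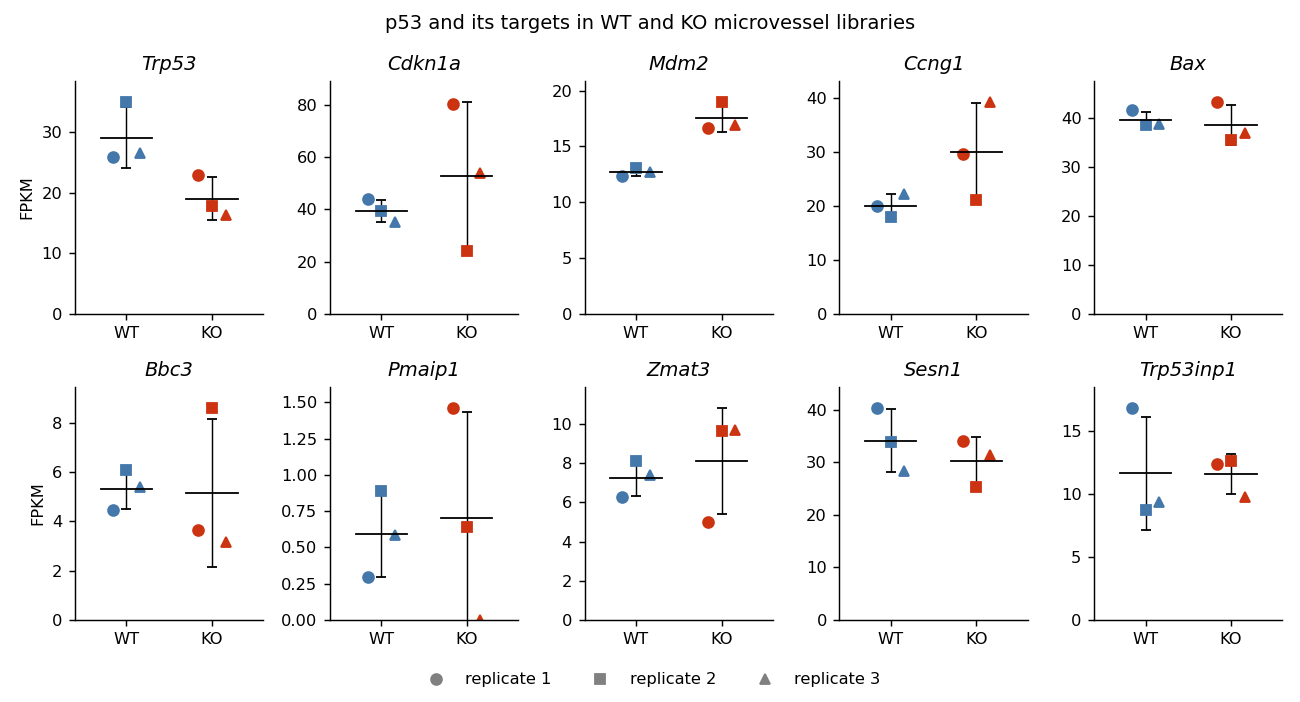
Level of *Trp53* and its 9 targets in each library, in FPKM (vertical axes from 0, a scale for each gene). Blue points are WT and red points KO libraries, with the shape giving the replicate, and lines are the mean ± SD of 3 libraries. *Trp53* is lower (16.3 to 23.0 against 25.8 to 34.9 FPKM) and *Mdm2* higher (16.6 to 19.0 against 12.3 to 13.0 FPKM) in every KO library, and the groups overlap for the other 8 genes.

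*Mdm2* (chr10:117688875-117710758, minus strand, 12 exons), the feedback inhibitor whose window above holds a decamer, went the opposite way. It had 12.3, 13.0 and 12.7 FPKM in the WT libraries and 16.6, 19.0 and 16.9 FPKM in the KO libraries. WT libraries were close to each other, and all KO libraries lay above them. The mean was 12.7 ± 0.363 FPKM in WT and 17.5 ± 1.26 FPKM in KO mice (n = 3 each), and the log2 difference was 0.43 (SE 0.19, 95% interval 0.01 to 0.85, limma p = 0.0444, adjusted p = 0.841, exact permutation p = 0.1). The unadjusted p was near its threshold and was not below 0.05 when any 1 library was left out (0.0600 to 0.108, limma; no exact test on 5 libraries). After a correction for GC content and transcript length the difference was 0.37 (limma p = 0.0675, without an exact permutation test). In KO 2, with choroid plexus markers at 2941 FPKM, *Mdm2* was at 19.0 and *Trp53* at 17.7 FPKM. The summed astrocyte, microglia and macrophage, and fibroblast markers were below WT in every KO library, as *Trp53* was. Over the 6 libraries the Pearson r of mean log2 marker levels with *Trp53* was 0.77 for pericyte, 0.74 for microglia and macrophage, and 0.62 for endothelial markers. It was 0.54 for fibroblast, 0.53 for erythroid, 0.51 for oligodendrocyte, 0.35 for astrocyte and 0.30 for neuron markers. For smooth muscle it was −0.26 and for choroid plexus −0.58. The part of these cell types in the levels of *Trp53* and *Mdm2* was not tested.

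Among the targets that halt the cell cycle, *Cdkn1a* encodes p21, an inhibitor of cyclin-dependent kinases. *Cdkn1a* (chr17:29090976-29100727, plus strand) had 43.8, 39.2 and 35.1 FPKM in WT mice and 80.6, 23.9 and 53.9 FPKM in KO mice. KO 1 and KO 3 were above and KO 2 below all WT libraries, so the groups overlapped. The mean was 39.4 ± 4.39 FPKM in WT and 52.8 ± 28.4 FPKM in KO mice, with a log2 difference of 0.26 (SE 0.37, 95% interval −0.56 to 1.08, adjusted p = 0.948, exact permutation p = 0.7). Single KO libraries decided its direction. Without KO 1 the difference was −0.12, and without KO 2 it was 0.73 (limma p = 0.00794, adjusted p = 0.243, with no exact test on 5 libraries).

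*Ccng1* (chr11:40748552-40755311, minus strand) encodes cyclin G1, an atypical cyclin that brings a phosphatase to Mdm2. Its level was 19.9, 17.9 and 22.3 FPKM in WT mice and 29.6, 21.1 and 39.2 FPKM in KO mice. KO 1 and KO 3 were again above all WT libraries, and KO 2 lay among them. The log2 difference was 0.52 (SE 0.24, 95% interval −0.02 to 1.06, limma p = 0.0592, adjusted p = 0.841, exact permutation p = 0.2). KO 2 and KO 3 decided its size. Without KO 2 it was 0.74 (limma p = 0.00564, adjusted p = 0.217) and without KO 3 it was 0.31 (limma p = 0.218), with no exact test on 5 libraries. *Zmat3* (chr3:32334792-32366014, minus strand), which encodes a zinc finger protein that binds RNA, had another pattern. It had 6.26, 8.10 and 7.37 FPKM in WT and 4.998, 9.65 and 9.68 FPKM in KO mice (log2 difference 0.10, SE 0.28, adjusted p = 0.971, exact permutation p = 0.8). Here KO 1 was the lowest library, and KO 2 and KO 3 were the highest.

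The libraries with high *Cdkn1a* and *Ccng1* were those with high choroid plexus markers. All 4 of these markers (*Ttr*, *Kl*, *Folr1* and *Clic6*) had a higher mean in KO mice and none was at 0 in any library. *Ttr*, which encodes the thyroid hormone carrier transthyretin, had 3093, 2722 and 2628 FPKM in WT and 8262, 2771 and 9787 FPKM in KO mice. *Cd82*, a tetraspanin and another known p53 target, had 47.3, 50.2 and 59.5 FPKM in WT and 79.6, 51.5 and 119 FPKM in KO mice (log2 difference 0.59, SE 0.29, adjusted p = 0.841, exact permutation p = 0.2). Its groups overlapped, but not after quantile normalization or correction for GC content and length, where all KO libraries lay above. KO 1 and KO 3 were thus the 2 highest libraries for each of these genes, while KO 2 had *Ttr* and *Cd82* within and *Cdkn1a* below the WT range. KO 2 stood apart from KO 1 and KO 3 in other values too. The Spearman correlation between departures from the mean of the 6 libraries and transcript length was 0.291 in KO 2, −0.313 in KO 1 and −0.146 in KO 3. The smooth muscle sum was 775 FPKM in KO 1, 269 in KO 2, 399 in KO 3 and 578 in WT 1. Whether choroid plexus RNA, smooth muscle RNA or transcript length had a part in the levels of *Cdkn1a*, *Ccng1* and *Cd82* was not tested.

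**Figure D2:**
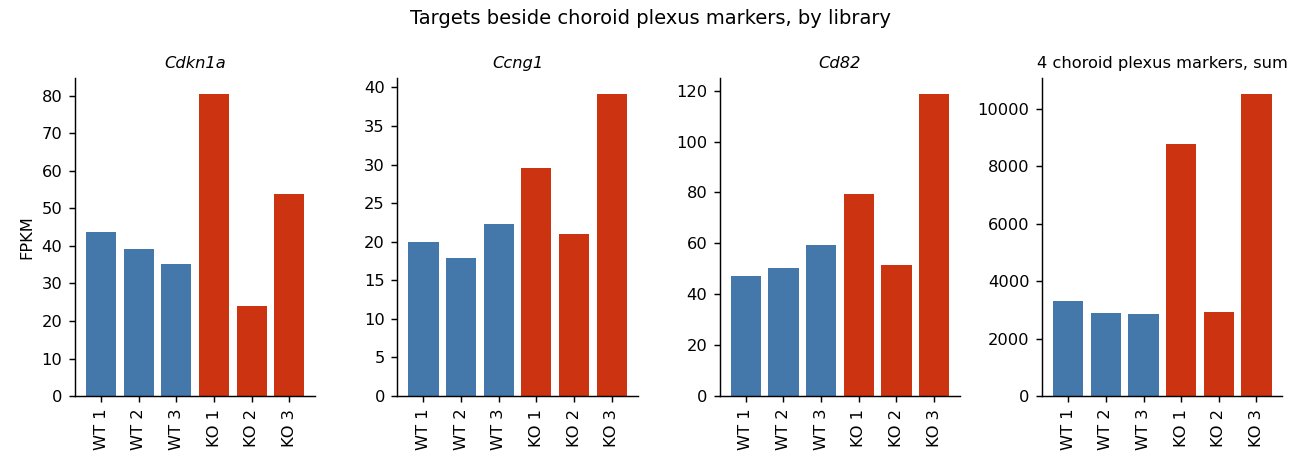
Level of *Cdkn1a*, *Ccng1* and *Cd82* and the summed level of 4 choroid plexus markers in each library (bars from 0, FPKM, WT blue and KO red, no error since each bar is 1 library). KO 1 and KO 3 are the 2 highest libraries in every panel, with summed markers of 8772 and 10525 FPKM, and KO 2 (2941 FPKM) lies in the WT range of the markers.

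Among the targets that act in apoptosis, *Bax* (chr7:45461697-45466898, minus strand) encodes the protein that forms pores in the outer mitochondrial membrane. It was the steadiest of these genes besides *Mdm2*, with 41.6, 38.7 and 38.8 FPKM in WT and 43.3, 35.7 and 37.0 FPKM in KO mice. The difference was −0.04 (SE 0.18, 95% interval −0.45 to 0.37, adjusted p = 0.985, exact permutation p = 0.6). *Bbc3* (chr7:16308393-16318205, plus strand) encodes Puma, a small protein that neutralises survival members of the Bcl2 family. It had 4.45, 6.09 and 5.42 FPKM in WT and 3.66, 8.60 and 3.17 FPKM in KO mice (log2 difference −0.14, SE 0.34, adjusted p = 0.967, exact permutation p = 0.8). KO 2 was the highest and KO 1 and KO 3 were the lowest libraries, whereas for *Cdkn1a* KO 2 was the lowest and KO 1 and KO 3 were the highest.

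*Pmaip1* encodes Noxa, a relative of Puma, and it was barely present. Its level was 0.295, 0.889 and 0.588 FPKM in WT mice and 1.46 and 0.641 FPKM in KO 1 and KO 2, and it was listed at 0 in KO 3, where 3 fragments would be 0.0949 FPKM. It was under the minimum mean of 1 FPKM and was not among the genes tested (exact permutation p = 0.9). *Trp53inp1* (chr4:11156431-11174379, plus strand), whose product acts in autophagy and cell death under stress, had 16.8, 8.74 and 9.33 FPKM in WT and 12.4, 12.6 and 9.76 FPKM in KO mice. WT 1 was the highest library, and the KO libraries lay between the WT values (log2 difference 0.04, SE 0.27, adjusted p = 0.991, exact permutation p = 0.9).

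*Sesn1* (chr10:41809935-41908424, plus strand) encodes a sestrin, which limits oxidative damage and restrains the growth kinase mTOR. It had 40.3, 33.8 and 28.3 FPKM in WT and 34.0, 25.4 and 31.4 FPKM in KO mice. The groups overlapped, with a log2 difference of −0.16 (SE 0.21, 95% interval −0.63 to 0.31, adjusted p = 0.940, exact permutation p = 0.5). Its direction was the same, lower in KO mice, under each of the alternatives tried (−0.29 to −0.04).

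Of the 10 genes, 9 reached the minimum mean and were tested, and none passed after adjustment by limma. No gene of the 14247 did (0.0%), and the lowest adjusted p in the whole comparison was 0.841. Among the 8 targets tested, 1 (*Mdm2*) had an unadjusted p under 0.05, and it was higher in KO mice. Across all genes 838 (5.88%) had such a p, 395 (2.77%) higher and 443 (3.11%) lower in KO mice. *Mdm2* was likewise the 1 target of 8 whose groups did not overlap, against 1577 (11.1%) of all genes, with 765 (5.37%) above and 812 (5.7%) below the WT libraries throughout. *Trp53*, the regulator, was among the genes below. After quantile normalization *Ccng1* joined *Mdm2* in both counts, which became 2, while no target had an unadjusted p under 0.05 without the trended variance or after correction for GC content and length (count 0). A count of 1 among 8 is too small to set the targets apart from these shares. Of the 8 targets, 5 had a higher and 3 a lower mean in KO mice, and their median log2 difference was 0.07, beside −0.01 for all genes and −0.59 for *Trp53*.

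**Figure D3:**
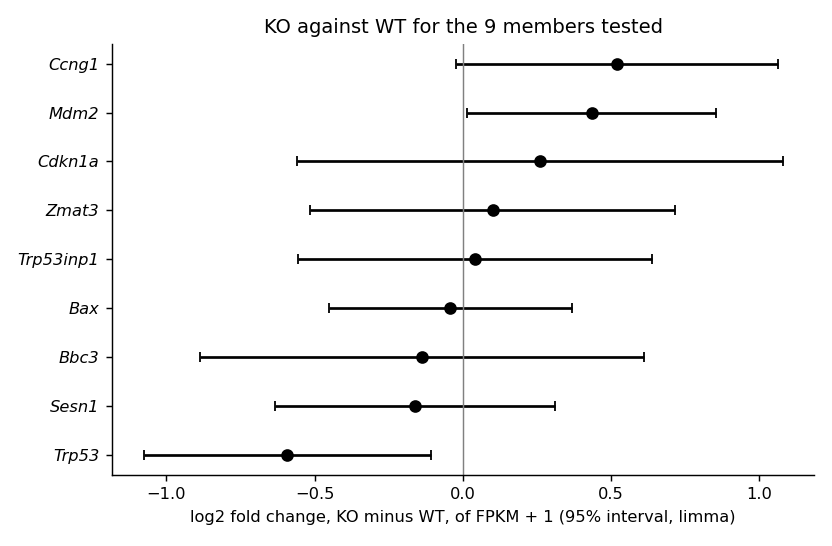
Log2 difference between KO and WT mice on the FPKM + 1 scale for the 9 genes tested (horizontal axis), with 95% intervals from limma, from the highest to the lowest. Only the intervals of *Mdm2* (0.01 to 0.85) and *Trp53* (−1.08 to −0.11) do not cross 0, before adjustment over all genes.

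Library by library, the targets departed from WT in both directions. The median departure of the 8 targets from their WT mean was 0.13, 0.12 and 0.14 on the log2 scale in KO 1, KO 2 and KO 3. In KO 1, 4 of the 8 targets lay above and 2 below all WT libraries (31.1% and 28.7% of all genes). The counts were 3 above and 3 below in KO 2 (28.7% and 32.6% of all genes) and 4 above and 2 below in KO 3 (29.2% and 28.0%). Which targets these were differed between the KO mice. *Cdkn1a* departed by 1.02 in KO 1, −0.69 in KO 2 and 0.45 in KO 3, and *Bbc3* by −0.43, 0.61 and −0.59. *Mdm2* was the target with departures of like sign and similar size in all KO mice (0.37, 0.54 and 0.39).

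The SD of log2 values was wider in KO than in WT mice for 7 of the 9 genes tested (77.8%) and for 64.4% of all genes, so a wider spread was common in the whole comparison. For *Trp53* the SDs were nearly equal (0.25 and 0.23). The coefficient of variation of *Cdkn1a* was 11.1% in WT and 53.8% in KO mice, and that of *Bbc3* was 15.5% and 58.5%. *Mdm2* had the smallest in both groups, 2.87% and 7.19%. *Sesn1* and *Trp53inp1* were the exceptions, with less scatter in KO mice. Departures from the mean of the 6 libraries also varied with transcript length across 13726 genes (which are not independent replicates), with a Spearman correlation of −0.313 in KO 1, 0.291 in KO 2 and −0.146 in KO 3, and 0.025 to 0.057 in the WT libraries. With GC content the correlation was 0.080, 0.313 and 0.154 in the WT libraries and −0.130, −0.259 and −0.020 in the KO libraries, and that of the log2 difference between groups was −0.35 with GC content and −0.08 with length. The part of either in the scatter of the p53 genes was not tested.

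**Figure D4:**
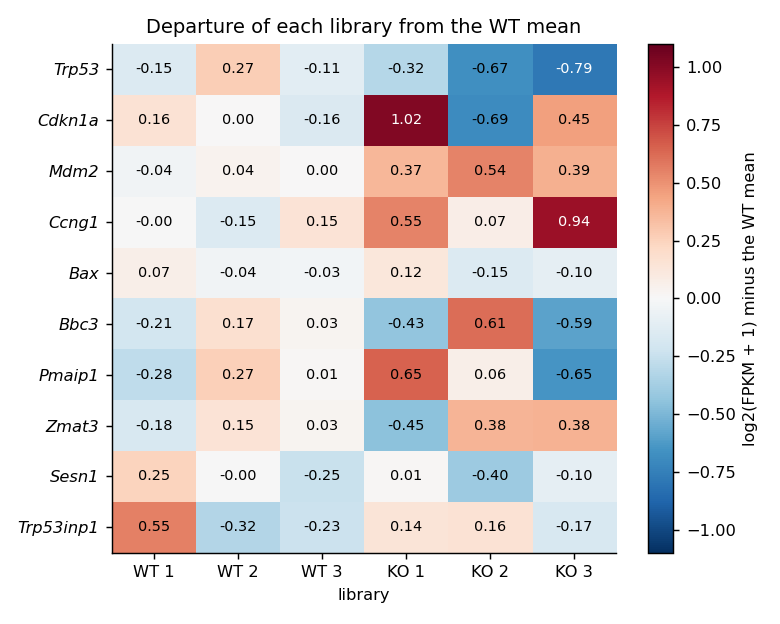
Departure of each library (columns) from the WT mean of each gene (rows), as a log2 difference on the FPKM + 1 scale, with the value written in each cell and red for higher, blue for lower. *Trp53* is negative (−0.32 to −0.79) and *Mdm2* positive (0.37 to 0.54) in all KO libraries, while *Cdkn1a* and *Bbc3* change sign between them.

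The level of each target was also set against that of *Trp53* in the same library. Ratios below are of the FPKM values, while the log2 differences, tests and counts of libraries without overlap are on the FPKM + 1 scale and are not those of the printed ratios. With the added 1 they still depend in part on scaling between libraries. For *Mdm2* the ratio to *Trp53* was 0.477, 0.373 and 0.479 in WT and 0.725, 1.07 and 1.04 in KO mice. All KO libraries were above all WT libraries, with means of 0.443 ± 0.0605 and 0.945 ± 0.191 and a log2 difference of 1.03 (exact permutation p = 0.1, the smallest possible). *Ccng1* had ratios of 0.773, 0.512 and 0.839 in WT and 1.29, 1.19 and 2.41 in KO mice (log2 difference 1.11, exact permutation p = 0.1), again without overlap. *Bax*, whose own level overlapped between groups, had ratios of 1.61, 1.11 and 1.46 in WT and 1.89, 2.01 and 2.27 in KO mice (log2 difference 0.55, exact permutation p = 0.1).

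*Cdkn1a* did not separate in this measure, with ratios of 1.70, 1.12 and 1.32 in WT and 3.51, 1.35 and 3.31 in KO mice (log2 difference 0.85, exact permutation p = 0.2). The ratios of *Bbc3*, *Zmat3*, *Sesn1* and *Trp53inp1* overlapped too, with log2 differences of 0.43 to 0.69 (exact permutation p = 0.3 to 0.5). *Pmaip1*, which was not among the genes tested, had ratios of 0.0114 to 0.0254 in WT and of 0.0635, 0.0362 and 0 in KO mice, although on the FPKM + 1 scale its KO libraries lay above the WT libraries. In all, 3 of the 8 tested targets had a ratio above the WT libraries in every KO library. The count was 6 without WT 1, 5 without KO 1 and 4 without KO 2, where fewer libraries have to separate, and 2 after correction for GC content and length. No share of all genes is given for these settings, so these counts cannot be set against one. The count of 3 has to be read against all genes. With *Trp53* lower in every KO mouse, 5299 of 14246 genes (37.2%) had a higher ratio to it in every KO library and 7 (0.0491%) a lower one. The median log2 difference of the ratio was 0.66 for the tested targets and 0.59 for all genes.

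**Figure D5:**
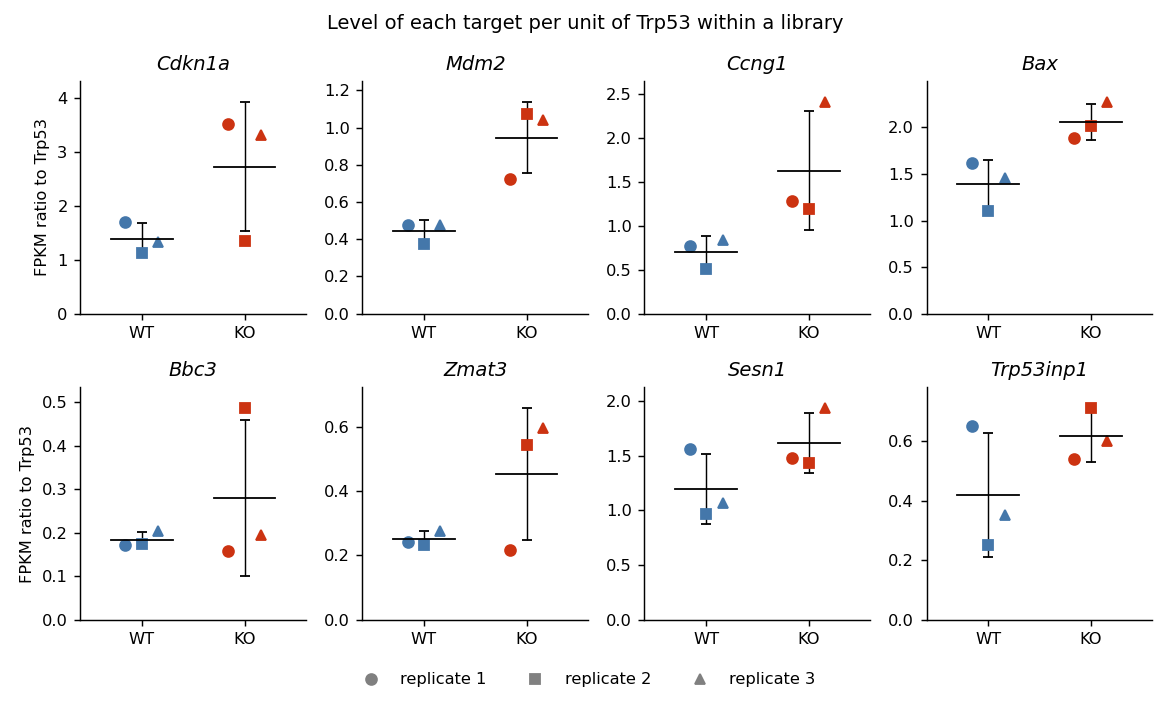
Ratio of the FPKM of each tested target to that of *Trp53* in the same library (vertical axes from 0, no unit), WT in blue and KO in red, with the mean ± SD of 3 libraries. *Mdm2* (0.725 to 1.07 against 0.373 to 0.479), *Ccng1* and *Bax* separate the groups, and the other 5 targets overlap.

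Across the 6 libraries, 9 relations between a target and *Trp53* were computed on log2 values. The highest in size was that of *Mdm2*, and it was negative (Pearson r = −0.81, exact permutation p = 0.0528; Spearman rho = −0.71, exact permutation p = 0.136). Without WT 2 and KO 3, the libraries farthest from the median of *Trp53*, it was −0.93. Within the groups, as deviations from the group means, it was −0.04, so that the relation lay between the groups and not among mice of one group. *Ccng1* had r = −0.71 (exact permutation p = 0.124) and rho = −0.71 (exact permutation p = 0.136), and its r was 0.02 without the same libraries, so that it rested on them.

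*Pmaip1* (r = 0.46, rho = 0.37), *Bax* (r = 0.44, rho = 0.37), *Sesn1* (r = 0.43, rho = 0.26) and *Bbc3* (r = 0.17, rho = 0.43) had positive and *Zmat3* (r = −0.40, rho = −0.43) and *Trp53inp1* (r = −0.19, rho = −0.49) negative values, with exact permutation p of 0.356 to 0.75 for r and rho. *Cdkn1a* had r = 0.01 and rho = −0.26 (exact permutation p = 0.982 and 0.658). None of the 9 relations had a p under 0.05 before any correction. Without WT 2 and KO 3, *Bbc3* (−0.72) and *Pmaip1* (−0.22) changed sign, *Cdkn1a* had 0.44, *Bax* 0.64, *Sesn1* 0.61, *Zmat3* −0.59 and *Trp53inp1* −0.07. Of the 8 tested targets 4 had a positive r (50%), beside 51.1% of all genes, and the median r was −0.09 beside 0.01 for all genes. Within groups the medians were 0.00 and 0.01. An r at or below that of *Mdm2* was found for 2.24% of all genes, and at or below that of *Ccng1* for 5.15%.

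The 5 genes most like *Trp53* by Pearson r over the 6 libraries were *Sh2d3c* (0.995), *Cherp* (0.993), *Mndal* (0.989), *Oasl2* (0.986) and *Kazn* (0.985). They are the highest of 14246 values, so a high r was fixed by their choice. *Sh2d3c* had 14.9, 19.2 and 16.0 FPKM in WT and 14.2, 11.7 and 10.5 FPKM in KO mice, the same order of libraries as *Trp53*. None of the 9 targets was among them.

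Beyond these 10 genes, 107 further symbols of the p53 network were examined, of which 104 were in the files and 96 were tested. None passed after adjustment, and 2 had an unadjusted limma p under 0.05, both lower in KO mice. Of all genes, 5.88% had such a p in either direction and 3.11% were lower with it. In 8 of the 96 (8.33%, beside 11.1% of all genes) the groups did not overlap, 1 above and 7 below. This split depended on scaling. It was 1 above and 4 below with a trimmed-mean factor, and 4 above and 6 below after median scaling, after quantile normalization and after correction for GC content and length (95 genes tested). *Rap2b* was among those above in the last 3 settings, *Plk2* after median scaling, and both were named after their values were seen. There were 50 with a higher and 46 with a lower mean in KO mice, and the median log2 difference was 0.01.

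Regulators of p53 (18 tested, 11 higher and 7 lower means in KO mice, median log2 difference 0.02) held 3 genes without overlap (16.7%). The share of all genes was 11.1%, and a count of 3 is too small to set the list apart from it. *Usp7*, a deubiquitinase of Mdm2 and p53, had 16.1, 19.7 and 22.1 FPKM in WT and 24.5, 24.1 and 22.2 FPKM in KO mice (log2 difference 0.29, exact permutation p = 0.1). *Ep300*, an acetyltransferase that acts with p53, had 12.6, 10.2 and 11.0 FPKM in WT and 8.22, 10.05 and 8.78 FPKM in KO mice (log2 difference −0.29, exact permutation p = 0.1). *Ppp1r13b*, a p53-binding protein that favours apoptosis, had 17.2, 20.4 and 18.1 FPKM in WT and 12.8, 12.4 and 15.4 FPKM in KO mice (log2 difference −0.43, exact permutation p = 0.1). All 3 had an adjusted p of at least 0.841, and the groups overlapped for *Ep300* with a trimmed-mean factor and for *Usp7* after quantile normalization or correction for GC content and length. *Mdm4*, the relative of *Mdm2* that blocks p53 without being an active ligase on its own, had 8.57, 6.46 and 6.02 FPKM in WT and 8.98, 17.9 and 7.07 FPKM in KO mice, a difference of 0.53 (SE 0.32, exact permutation p = 0.2) carried by KO 2.

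Further targets in arrest and repair (19 tested, median 0.11) had 13 higher and 6 lower means in KO mice. *Xpc*, which recognises DNA damage, was the 1 gene of this list without overlap (5.26%, beside 11.1% of all genes). It had 10.3, 12.7 and 10.4 FPKM in WT and 7.69, 9.50 and 10.3 FPKM in KO mice (log2 difference −0.26, exact permutation p = 0.1). The groups touched, since WT 1 had 10.29 and KO 3 had 10.26 FPKM, and they overlapped under each of the scalings tried and after correction for GC content and length. *Ddit4*, an inhibitor of mTOR that responds to stress, had 68.0, 29.1 and 19.1 FPKM in WT and 89.98, 21.9 and 49.8 FPKM in KO mice, with KO 1 highest as for *Cdkn1a* (log2 difference 0.45, exact permutation p = 0.6). *Ckap2*, a protein of the mitotic spindle, had a difference of 0.60 (exact permutation p = 0.3).

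Further targets in cell death (13 tested, median −0.12) included the gene with the lowest p of these lists. *Trp53i11* had 219, 202 and 148 FPKM in WT and 115, 114 and 121 FPKM in KO mice. All KO libraries were below all WT libraries and close to each other (log2 difference −0.68, SE 0.22, limma p = 0.0105, adjusted p = 0.841, exact permutation p = 0.1). *Bid*, which links death receptors to mitochondria, had 2.53, 7.69 and 3.75 FPKM in WT and 3.02, 1.69 and 2.50 FPKM in KO mice (log2 difference −0.65, exact permutation p = 0.2).

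Targets in metabolism and among secreted and surface proteins (20 tested, median −0.13) had 12 lower and 8 higher means in KO mice. Of them 3 (15%) were lower without overlap, beside 5.7% of all genes, a count too small to set the list apart. *Notch1*, the receptor of the Notch pathway, had 15.3, 18.1 and 14.9 FPKM in WT and 9.39, 12.9 and 11.1 FPKM in KO mice (log2 difference −0.50, SE 0.21, limma p = 0.0378, adjusted p = 0.841, exact permutation p = 0.1). *Thbs1*, a secreted inhibitor of angiogenesis, had 18.5, 32.7 and 18.6 FPKM in WT and 12.5, 18.1 and 16.8 FPKM in KO mice (log2 difference −0.50, exact permutation p = 0.1), and its groups overlapped with a trimmed-mean factor and after quantile normalization. *Fdxr*, a mitochondrial reductase, had 5.57, 9.18 and 6.12 FPKM in WT and 4.46, 4.63 and 4.36 FPKM in KO mice (log2 difference −0.51, exact permutation p = 0.1). *Gls2*, a mitochondrial glutaminase, was low in all libraries and listed at 0 in KO 1 (log2 difference −0.57, exact permutation p = 0.5).

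Neither the other members of the Bcl2 family (9 tested, median −0.11) nor the cell cycle genes that p53 and p21 are known to lower (17 tested, median 0.02) held a gene without overlap or with an unadjusted limma p under 0.05. The shares of all genes were 11.1% and 5.88%. *Bcl2*, the survival factor, had 10.1, 7.70 and 7.87 FPKM in WT and 10.5, 14.05 and 10.02 FPKM in KO mice (log2 difference 0.38, exact permutation p = 0.2). Its KO libraries lay above the WT libraries after median scaling, quantile normalization or correction for GC content and length, so the absence of such a gene holds without them. *Bok*, a relative of *Bax*, had a difference of −0.30 (exact permutation p = 0.4). The mitotic kinase gene *Cdk1* had 1.94, 5.94 and 2.38 FPKM in WT and 6.60, 4.78 and 4.46 FPKM in KO mice (log2 difference 0.60, exact permutation p = 0.3), and *Aurkb*, another, had a difference of −0.38 (exact permutation p = 0.4). These genes were at low levels, and the cell cycle list had 9 higher and 8 lower means in KO mice.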

How the data were processed

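RNA from cerebral microvessels of 3 WT and 3 KO mice was extracted with TRIzol, and directional libraries were sequenced as paired ends of 100 bases. The authors removed adapters and reads of low quality (under Q20), mapped the reads with TopHat (the submitters' processing notes name mm10) and deposited FPKM values for 23183 gene symbols per library. The annotation, the quantifier and any scaling between libraries are not given in the sources used here. The study used DESeq2 for differential expression, and read counts were not used here.

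Values were analysed as log2(FPKM + 1) with limma 3.58.1 (R 4.3.3, trended prior variance), in place of a count test, for 14247 genes, those whose mean across the 6 libraries reached 1 FPKM. The Benjamini-Hochberg adjustment ran over all of them. Fold changes on this scale understate those of low genes. Single values were tested by exact two-sided permutation over the libraries. Each library is from another mouse. The analysis was tested on simulated data, and all tables were made in R and in Python 3.11.15 with pandas 2.3.3, numpy 2.4.6 and scipy 1.17.1.

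Libraries were grouped by the genotype in the sample titles. Depth was estimated from the peak of the lowest FPKM values, scaled with the lengths of genes with 1 annotated transcript. The peak was sought within a fixed range, which limits the depths that could be found. Positions, exons, length and GC content came from the longest coding transcript in GENCODE M21 (GRCm38), and promoters from RefSeq. The members and lists were chosen with earlier results of these data known. Named are the 10 members, the genes of each further list with an unadjusted limma p under 0.05 or no overlap between groups, its 2 largest differences, the 5 genes most correlated with *Trp53*, and *Gadd45gip1*. *Ttr* and the other choroid plexus markers are shown because they were high in the same libraries as *Cdkn1a*, which was seen in the values. Of the further symbols, Cop1 and Pidd stand in the files as *Rfwd2* and *Pidd1*, which were also listed, and *Trp53rk* had no row.

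The alternatives were no filter, a minimum mean of 5 FPKM, quantile normalization, median scaling, a trimmed-mean factor, a pseudocount of 0.1, no trended variance, a replicate block, loess correction (span 0.3) for GC content and length, and leaving out each library.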

Additional observations from a re-analysis of the deposited data

How the results depend on the processing

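*Trp53* was lower in KO mice under all 15 alternatives (−0.73 to −0.46), with an unadjusted limma p above 0.05 without WT 2 or KO 3. *Mdm2* was higher under all 15 (0.37 to 0.47), with such a p above 0.05 in 9 of them. The titles number the mice of both groups 1 to 3, and the sources used here do not say whether the numbers pair the mice. Deviations of same-numbered libraries correlated at 0.04, 0.03 and 0.00. This cannot decide the question, since differences between single libraries can hide a shared origin. With the number as a replicate block, 871 genes had an unadjusted limma p under 0.05 (838 without it), *Mdm2* passed that threshold no longer (limma p = 0.0804, with no exact permutation test under the block) and *Ccng1* passed it (0.52, limma p = 0.0425), as it did after quantile normalization (0.51, limma p = 0.0426). Correction for GC content and length changed the sign of *Bax* (0.066), *Bbc3* (0.014) and *Trp53inp1* (−0.082), took *Ccng1* to 0.38, moved the targets' median log2 difference from 0.072 to 0.097 and moved their median r with *Trp53* from −0.09 to −0.33. The targets' median was 0.042 without a filter. The number of further p53 genes with an unadjusted p under 0.05 was 2, and it was 4 without a filter, 4 after quantile normalization and 1 without the trended variance. Leaving out 1 library at a time gave 450 (without WT 2) to 1871 (without KO 2) genes with such a p, 510 without KO 1, and 1 to 9 further p53 genes (9 without KO 2). The same gave a median difference of the targets of −0.0028 to 0.16 and a median r of −0.22 to 0.047. It gave −0.12 to 0.73 for *Cdkn1a*, 0.31 to 0.74 for *Ccng1*, −0.13 to 0.011 for *Bax*, −0.51 to 0.089 for *Bbc3*, −0.039 to 0.38 for *Zmat3* and −0.12 to 0.32 for *Trp53inp1*. After adjustment 4 genes of the whole comparison passed without KO 2, 4 without KO 3, 1 without WT 3 and 1 without a filter, and none of the p53 genes was among them. *Ttr* was 1 of the 4 without KO 2. The cause of these changes was not tested. Medians of the log2 difference between groups in the ratio to *Trp53* were 0.52 to 0.83. The number of targets separated by the ratio ran from 2 to 6 of 8, against 3, with no share of all genes at those settings. The interval of *Trp53* spans 0.11 to 1.08 in size. *Pmaip1* rested on about 9 to 32 estimated fragments where present and 0 in KO 3, and it was not among the genes tested.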
